A study of Chlamydomonas reinhardtii with 25 samples.

Results

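The genes described here are 150 genes of Chlamydomonas reinhardtii, a unicellular green alga, whose transcripts were lower after exposure to thulium (Tm), to yttrium (Y) and to a mixture of cerium, thulium and yttrium, while their level with cerium (Ce) alone stayed near that of the control. They were chosen by their measured levels. Counts were turned into CPM (counts relative to the scaled library total, on the usual CPM scale), the mean of each group was taken, and D was defined as log2(mean + 0.5 CPM) of an exposed group minus that of the control. Of the 19526 transcripts in the deposited table, each called a gene here, 7985 reached a mean of 5 CPM in at least 1 group. In 1900 of these the absolute D of Ce was under 0.5. The 150 with the lowest maximum of D over Tm, Y and the mixture were taken. All 150 also passed the filter on low counts used for testing.

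The study sequenced polyadenylated RNA from 25 samples of the wild-type strain CC-125, 5 per group. Cells were grown to mid-exponential phase at 20 °C with 12 h of light and 12 h of dark, washed in medium free of metal, and placed for 2 h in an exposure medium of 10 mM NaHEPES (pH 7.0) that also held 10 µM calcium nitrate. The control received no named metal, and the other groups received 0.5 µM of Ce, Tm or Y, or of their equimolar mixture (labelled YCeTm). For the mixture it is not stated if the 3 metals together or each alone made up 0.5 µM. Nor do the labels state that the libraries of a group came from separate cultures, so p-values measure only the spread between these libraries.

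The rare earth elements are metals that form trivalent ions of similar chemistry, whose ionic radius shrinks from the light elements, such as cerium, to the heavy ones, such as thulium. Yttrium is not a lanthanide but is usually placed with the heavy elements because its ion has a similar size. A transcript level reflects the balance of synthesis and decay, and in bulk RNA a lower level in every cell and a loss of the transcript from part of the cells cannot be told apart. The deposited table pairs its gene IDs with no names. The RefSeq list used here (assembly Chlamydomonas_reinhardtii_v5.5) holds 112 of the 119 members with an ID of the Cre form, but gives 0 symbols other than locus tags, so no function is attached to any ID and the lists by function had no members.

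Library totals ran from 12920957 to 28974088 counts. Scaling factors by TMM (trimmed mean of M-values) lay between 1.38 and 1.46 in the Ce libraries, between 0.862 and 0.986 in the Tm, Y and mixture libraries, and between 0.713 and 1.14 in the controls, where library 1 had the highest. Every member had counts in every library. The lowest count of a member in any library was 4, in 2 Y libraries, and the median count per member was 42.5 to 79.5 in the Tm, Y and mixture libraries and 130.0 to 406.5 in the control and Ce libraries.

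The 150 genes together took 4171 ± 285 CPM in the control (SD, n = 5) and 3917 ± 158 CPM in Ce. With Tm they took 1266 ± 146 CPM, in Y 1079 ± 74.6 CPM and in the mixture 1358 ± 238 CPM. The lowest of the 10 control and Ce libraries held 3655 CPM and the highest of the 15 others 1725 CPM. A gap in this sum follows from the way the members were chosen, so nothing is read from it. The median member lay at 11.1 CPM in the control and 10.5 CPM in Ce, and at 3.27 CPM in Tm, 3.26 CPM in Y and 3.47 CPM in the mixture.

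Most members were of low to middle abundance. In the control their means ran from 3.72 to 434 CPM, with 70 under 10 CPM, 51 at 20 CPM or more and 5 at 100 CPM or more. The median of all 7985 genes over the minimum was 16.8 CPM in the control. The median D of the members was -1.50 in Tm (range -2.90 to -1.01), -1.51 in Y (-4.50 to -1.02) and -1.46 in the mixture (-2.58 to -1.02), against 0.06, 0.11 and 0.06 in all 7985 genes. In Ce it was -0.13, with 92 members below the control mean and 58 above it. These values chose the members and carry no test.

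**Figure D1:**
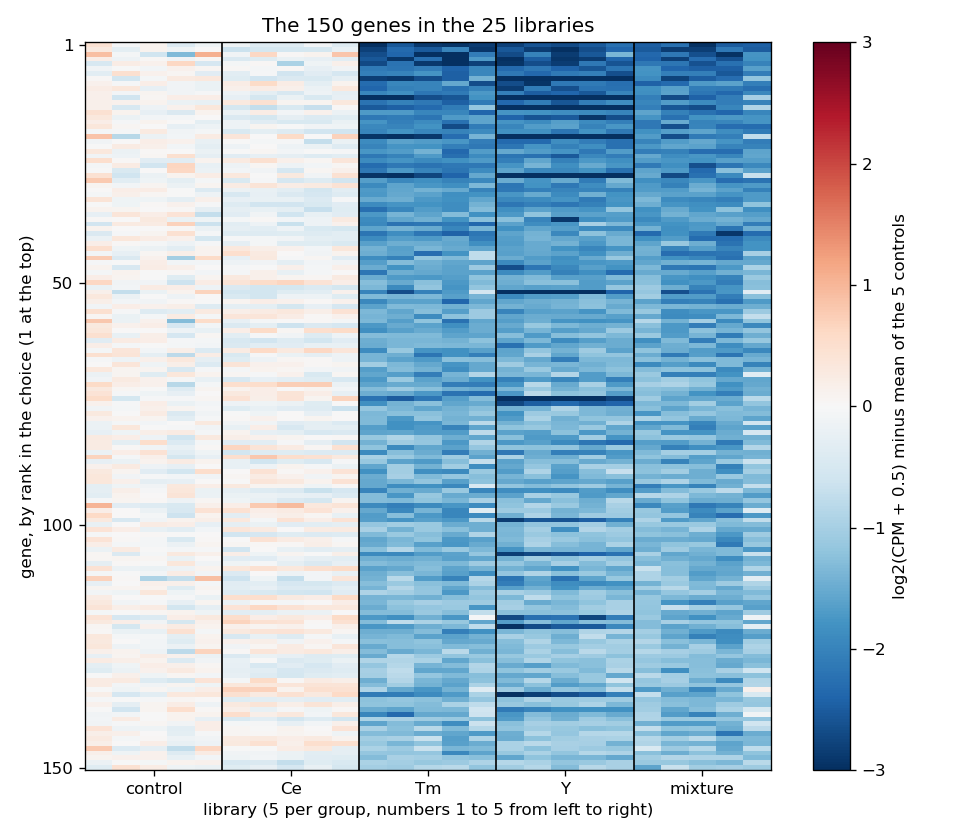
Each row is a member, ranked from 1 at the top to 150, and each column a library; the colour gives log2(CPM + 0.5) minus the mean of the 5 controls on the same scale. The control and Ce columns stay pale, while the 15 Tm, Y and mixture columns are blue, with single rows darkest in Y and paler cells in library 5 of Tm and of the mixture.

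In 137 of the 150 members the lowest of the 10 control and Ce libraries lay above the highest of the 15 others. The same held in 7.29% of the 7985 genes, and since the rule used these contrasts nothing is read from the count. In the other 13 members the highest of the 15 libraries was mixture library 5 in 8, Tm library 5 in 3 and mixture library 1 in 2. The lowest of the 10 was control library 2 in 6, control library 4 in 5, control library 3 in 1 and Ce library 4 in 1. The ranges of the control and Ce libraries overlapped in 128 of the 150 members (85.3%), against 27.3% of the 7985 genes. The limit on D of Ce bears on this share, so nothing is read from it.

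The limit on Ce was met by genes that went either way with the other exposures. Among the 1900 genes within it, 573 had a mean below the control in Tm, Y and the mixture, and 1120 had one above it in all 3 groups. At least 2-fold below in all 3 were 151 genes, and at least 2-fold above were 247. The members thus take nearly all of the genes at least 2-fold below in all 3. With library totals alone as the scale these counts were 237 and 103, and 67 of the 150 members met the limit on Ce. Under RLE (relative log expression) factors they were 139 and 254, and under upper-quartile factors 145 and 245. When TMM took control library 1 as its reference they were 106 and 361. More genes thus lay below than above with library totals alone, and more above than below under the other scalings.

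The choice ended in a dense range of values. The last members were Cre08g377550, Cre13g605100 and Cre06g268950, whose maximum of D was -1.02, -1.02 and -1.01. Just outside lay Cre06g252750, Cre10g422150 and g16753, the first of which also had -1.01. Cre06g252750 had 304 ± 45.4 CPM in the control, 101 ± 18.6 in Tm, 44.8 ± 7.23 in Y and 150.4 ± 18.2 in the mixture, and missed the choice through its level in the mixture alone.

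Cre14g617200 ranked first. Its control libraries 1 to 5 held 14.6, 10.1, 11.4, 7.75 and 9.56 CPM, and its Ce libraries 9.48, 7.86, 7.83, 9.82 and 7.95 CPM. Its level was 0.682, 1.37, 0.969, 0.939 and 1.02 CPM in Tm, 1.08, 1.31, 1.21, 1.42 and 1.84 CPM in Y, and 1.49, 1.81, 0.913, 1.45 and 1.50 CPM in the mixture. The control and Ce ranges overlapped, and the 15 other libraries reached 1.84 CPM at most. On the scale of D the level was 7.48-fold lower in Tm, 5.98-fold in Y and 5.80-fold in the mixture than in the control, and 1.23-fold lower in Ce.

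Cre16g681400, the third in rank, had a broad range in the control and a narrow gap to the Tm, Y and mixture libraries. Its control libraries held 55.0, 28.0, 18.9, 11.3 and 61.5 CPM and its Ce libraries 27.1, 44.7, 29.9, 31.4 and 51.9 CPM. It reached 4.14, 5.15, 3.05, 3.11 and 6.50 CPM in Tm, 4.11, 6.82, 3.57, 4.55 and 10.96 CPM in Y, and 5.26, 6.19, 4.26, 3.30 and 8.19 CPM in the mixture. Library 5 was the highest of its group in all 5 groups, and Y library 5 came close to control library 4. On the scale of D its level was 7.25-fold lower in Tm, 5.45-fold in Y and 5.96-fold in the mixture.

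Cre10g467200 also varied between control libraries, at 7.03, 11.9, 11.1, 15.7 and 6.97 CPM, and in Ce, at 9.60, 10.3, 5.01, 9.23 and 11.3 CPM. It held 1.12, 1.77, 0.920, 0.722 and 1.02 CPM in Tm, 0.872, 1.16, 0.968, 1.91 and 1.27 CPM in Y, and 1.89, 1.86, 1.22, 1.75 and 2.15 CPM in the mixture. All 15 lay below the lowest Ce library. Cre03g197100 and Cre06g286300 were at 6.08 ± 1.04 and 7.02 ± 0.724 CPM in the control and at 4.18 ± 0.536 and 5.58 ± 0.385 CPM in Ce. Their means in Tm, Y and the mixture lay between 0.512 and 0.978 CPM, levels that rest on 4 to 33 counts per library.

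Cre02g077750 was the most abundant member. Its control libraries held 402, 429.7, 411, 472 and 454 CPM and its Ce libraries 442, 416, 446, 363 and 405 CPM. In Tm it was at 99.2, 94.7, 102, 81.2 and 112 CPM, in Y at 86.2, 97.5, 81.4, 73.1 and 93.7 CPM, and in the mixture at 127, 83.5, 79.1, 78.8 and 139 CPM. Control and Ce overlapped closely, and the highest of the 15 others was 139 CPM against a lowest of 363 CPM in the other 10. On the scale of D its level was 4.42-fold lower in Tm, 5.00-fold in Y and 4.26-fold in the mixture. Only 8 members were at least 4-fold lower in all 3 groups on the scale of D. Taken group by group, 31 were at least 4-fold lower in Y, 22 in Tm and 15 in the mixture.

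**Figure D2:**
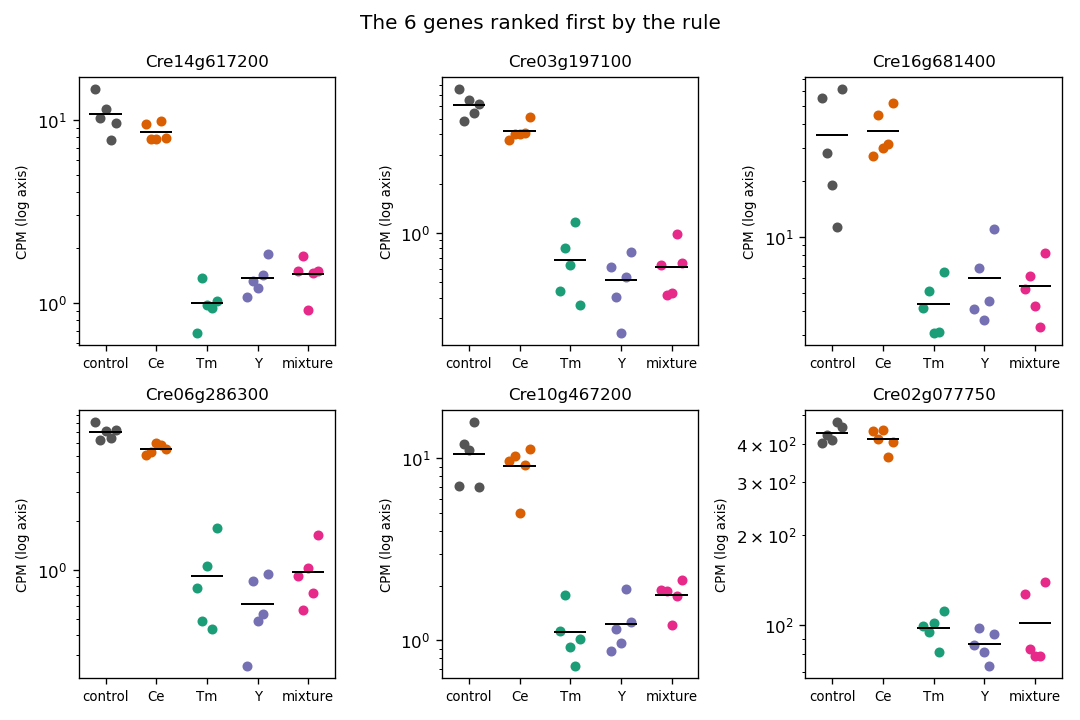
Level in CPM on a log axis of the 6 members ranked first by the rule, in each of the 5 libraries per group (points, in the order 1 to 5) with the group mean (line). Control and Ce points overlap in every panel except that of Cre06g286300, and Cre02g077750 stands between 363 and 472 CPM there and between 73.1 and 139 CPM in the other 3 groups.

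Among the other abundant members, Cre03g177400 held 134 ± 8.92 CPM in the control and 97.2 ± 7.14 in Ce. It held 39.8 ± 5.89 CPM in Tm, 32.4 ± 3.71 in Y and 43.7 ± 9.50 in the mixture. Cre16g672750 was the steadiest of the abundant members named. Its control libraries held 90.1, 91.9, 90.3, 95.8 and 93.2 CPM, its Ce libraries 72.0, 74.4, 76.0, 73.0 and 73.5 CPM, and its 15 other libraries 33.8 to 48.4 CPM. Here Ce lay below every control library, so a D of Ce within 0.5 (-0.32 for this gene) does not mean an unchanged level. Cre01g038600 went the other way in Ce, at 206 ± 24.0 CPM against 157 ± 49.9 in the control, and held 56.8 ± 7.49 CPM in Tm, 55.5 ± 7.41 in Y and 49.7 ± 12.3 in the mixture.

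The rule treats Tm, Y and the mixture alike and the control cancels between them, so the order of these 3 groups within the members is not set by the choice. The choice does bear on how far they can differ, since genes near or above the control in any of the 3 were left out. The order was tested with edgeR's quasi-likelihood test on all 12796 genes with enough counts. Genes with a Benjamini-Hochberg adjusted p under 0.05 over all of them are called. Differences are log2 fold changes from that fit with their standard errors (SE). The 3 comparisons share libraries, those against Y in particular, and their results are given side by side.

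Tm and Y differed in 28 of the 150 members (18.7%), against 20.8% of all genes tested. In Tm 19 members were higher and 9 lower, where 9.60% and 11.2% of all genes were called. The median difference of Tm minus Y over the members was 0.02 (range -1.22 to 2.33), against -0.04 over all genes, and 138 members lay within 2-fold. The number lower in Tm rests on few libraries: it was 3 without Y library 2, 3 without Y library 4, 4 without Tm library 4 and 5 without Tm library 5. With library 5 of every group left out, 16 were higher and 3 lower. The shares of all genes called with these libraries left out were not taken.

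The mixture and Y differed in 42 of the 150 members (28.0%), against 35.8% of all genes tested. In the mixture 30 members were higher and 12 lower, where 16.5% and 19.2% of all genes were called. The median difference of mixture minus Y was 0.05 (range -1.06 to 2.92), against -0.05 over all genes. Without mixture library 3, and without mixture library 4, the members lower in the mixture numbered 7 each. With control library 1 as the TMM reference, 4 members were lower in the mixture than in Y and 5 lower in Tm than in Y. The shares of all genes called under these settings were not taken.

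The members higher in Tm or in the mixture than in Y were mostly abundant ones. Of the 51 members with at least 20 CPM in the control, 16 (31.4%) were higher in Tm than in Y and 2 lower, and 21 (41.2%) were higher in the mixture than in Y and 3 lower. Of the 70 members under 10 CPM, 1 was higher and 4 lower in Tm, and 3 were higher and 5 lower in the mixture. Over all tested genes the shares move the same way: 22.8% of the 3696 genes with at least 20 CPM in the control were higher in Tm than in Y, and 3.22% of the 7917 under 10 CPM. The corresponding shares for mixture above Y were 37.1% and 6.61%. Lower in Tm than in Y were 7.77% of all genes with at least 20 CPM and 12.1% of those under 10 CPM, and lower in the mixture than in Y were 13.6% and 20.9%. The median D in Y was -1.85 in the 51 abundant members and -1.39 in the 70 low ones, against -1.55 and -1.45 in Tm.

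**Figure D3:**
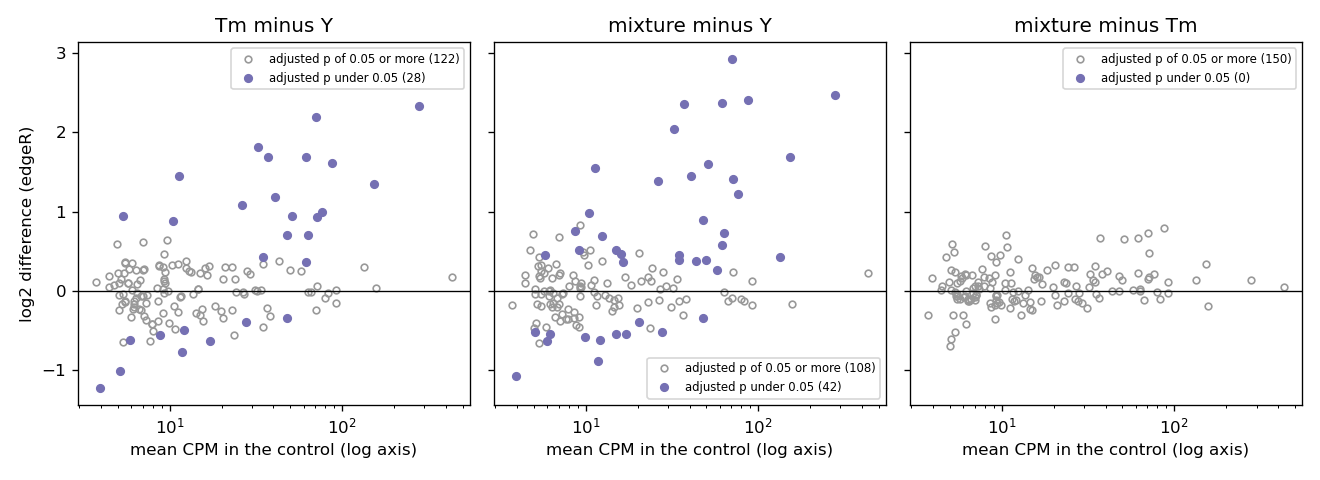
Log2 difference between 2 groups (edgeR) of each of the 150 members against its mean CPM in the control on a log axis, for Tm minus Y, mixture minus Y and mixture minus Tm; filled points have an adjusted p under 0.05. Filled points above 0 lie mostly at 20 CPM or more in the comparisons with Y, and the comparison of mixture and Tm has 0 filled points and stays within 1.

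g15585 had the largest difference between Tm and Y. Its control libraries held 303, 196, 247, 298 and 345 CPM, and its Ce libraries 188, 167, 199, 170.0 and 278 CPM. It was at 47.4, 49.7, 53.5, 63.9 and 123 CPM in Tm, at 11.8, 9.95, 9.74, 13.6 and 22.0 CPM in Y, and at 65.3, 45.9, 42.8, 70.1 and 146 CPM in the mixture. Y lay below every Tm and mixture library, and library 5 was the highest of all 5 groups. The difference of Tm minus Y was 2.33 ± 0.30 (SE, edgeR adjusted p = 6.77e-06) and that of mixture minus Y 2.47 ± 0.30 (edgeR adjusted p = 4.8e-07).

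Cre16g668850 showed the same order with a wider spread. It held 118, 36.4, 57.8, 61.5 and 77.3 CPM in the control and 84.1, 66.2, 97.2, 66.0 and 106 CPM in Ce. Its level was 8.09, 5.96, 8.33, 13.1 and 24.4 CPM in Tm, 2.05, 2.02, 2.30, 3.28 and 3.48 CPM in Y, and 20.2, 9.85, 14.7, 15.4 and 39.1 CPM in the mixture. Mixture library 5 lay above control library 2, while the Y libraries lay below all others. Tm minus Y was 2.19 ± 0.38 (edgeR adjusted p = 0.000191) and mixture minus Y 2.92 ± 0.38 (edgeR adjusted p = 1.12e-06). On the scale of D the gene was 22.6-fold lower in Y than in the control, 5.67-fold in Tm and 3.47-fold in the mixture.

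Cre02g109650 held 153, 101, 144, 181 and 187 CPM in the control, 117, 101, 112, 108 and 124 CPM in Ce, 20.7, 19.6, 23.4, 26.9 and 55.4 CPM in Tm, and 40.4, 21.6, 26.6, 30.6 and 65.5 CPM in the mixture. In Y it held 8.21, 9.80, 11.1, 13.5 and 14.8 CPM, below every Tm and mixture library. Tm minus Y was 1.35 ± 0.27 (edgeR adjusted p = 0.000687) and mixture minus Y 1.69 ± 0.27 (edgeR adjusted p = 1.88e-05). Without library 5 of every group the first was 1.09 and the second 1.48.

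Of the 9 members lower in Tm than in Y, Cre16g678900 had the largest difference, at low counts. It held 0.585, 0.483, 0.581, 0.722 and 0.602 CPM in Tm and 1.28, 1.72, 1.39, 1.03 and 1.58 CPM in Y, which are 6 to 12 and 21 to 34 counts per library. It held 0.658 ± 0.220 CPM in the mixture, 5.49 ± 1.36 in Ce and 3.94 ± 2.26 in the control, where library 1 held 7.83 CPM and the others 2.47 to 4.01. Tm minus Y was -1.22 ± 0.34 (edgeR adjusted p = 0.0107) and mixture minus Y -1.06 ± 0.32 (edgeR adjusted p = 0.0116). The Tm and Y libraries did not overlap, but without library 5 of every group the first had an edgeR adjusted p of 0.0572.

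Cre11g469400 was at 2.21 ± 0.388 CPM in Tm, 3.73 ± 0.727 in Y and 2.02 ± 0.671 in the mixture, from 11.8 ± 2.81 in the control and 8.83 ± 0.247 in Ce. Its mixture minus Y difference was -0.89 ± 0.20 (edgeR adjusted p = 0.00123) and its Tm minus Y difference -0.76 ± 0.20 (edgeR adjusted p = 0.00871, and 0.0506 without library 5 of every group). Cre10g461750 had 0.693 ± 0.123 CPM in Tm and 1.40 ± 0.479 in Y, a difference of -1.004 ± 0.31 (edgeR adjusted p = 0.0219). That call was lost without Y library 4 (edgeR adjusted p = 0.0899) and without Tm library 5 (edgeR adjusted p = 0.0598). It was also lost without library 5 of every group (edgeR adjusted p = 0.078).

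The mixture and Tm differed in 0 of the 150 members by edgeR, against 1.12% of all genes tested (0.203% higher and 0.914% lower in the mixture). At an unadjusted p under 0.05 there were 11 members higher and 2 lower in the mixture. DESeq2 called 0 members too, with 1.78% of all genes called and 17 members at an unadjusted p under 0.05. The shares of all genes at an unadjusted p under 0.05 were not taken, so nothing is read from the unadjusted counts. The differences ran from -0.69 to 0.80 with a median of 0.03, so all 150 lay within 2-fold, as did 98.1% of all genes. A 95% interval was formed from the SE and a t value with 20 degrees of freedom, and was not taken from the test itself. It lay within 2-fold in 134 members and crossed that bound in the others.

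Libraries of the same number in Tm and the mixture deviated together, with correlations of 0.193 to 0.440 across all genes in the 5 pairs, and were taken as pairs. With the replicate number as a block in a fit of these 2 groups alone, 18 members were called by edgeR, 15 higher and 3 lower in the mixture, against 22.2% of all genes (11.9% higher and 10.4% lower). With the block and all 25 libraries in the fit, 4 members were called, each higher in the mixture, against 2.26% of all genes. The members called with the lowest adjusted p in the paired fit were Cre16g668850 (0.76 ± 0.11, edgeR adjusted p = 4.51e-05), Cre06g249350 (0.65 ± 0.11, edgeR adjusted p = 5.88e-05) and Cre06g249500 (0.69 ± 0.11, edgeR adjusted p = 6.79e-05). In each of these the mixture lay above Tm in 5 of 5 pairs.

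Cre06g249350 and Cre06g249500 lie close together with a further member, Cre06g249600, on chromosome 6. Each is 3 genes from the next in the RefSeq gene order. They were singled out after their values had been seen. All 3 had the order Y, Tm, mixture from the lowest mean to the highest, and the control and Ce above.

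Cre06g249350 held 67.6, 39.9, 62.8, 69.1 and 69.3 CPM in the control, 51.0, 42.0, 52.3, 44.1 and 51.3 CPM in Ce, 6.14, 6.92, 9.20, 9.75 and 17.2 CPM in Tm, 2.72, 2.78, 3.09, 2.45 and 4.31 CPM in Y, and 14.3, 9.03, 10.8, 14.1 and 30.1 CPM in the mixture. Its Y libraries lay below all others, and Tm minus Y was 1.69 ± 0.29 (edgeR adjusted p = 0.000138). Cre06g249500 went from 37.2 ± 10.1 CPM in the control and 46.9 ± 7.65 in Ce to 9.31 ± 3.37 in Tm, 2.90 ± 1.17 in Y and 14.8 ± 3.80 in the mixture, with a Tm minus Y difference of 1.69 ± 0.25 (edgeR adjusted p = 3.85e-05). Cre06g249600 went from 26.2 ± 5.15 and 31.2 ± 4.24 CPM to 8.94 ± 3.00, 4.23 ± 1.02 and 11.02 ± 3.26 CPM in the same groups, with a Tm minus Y difference of 1.09 ± 0.21 (edgeR adjusted p = 0.000687).

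Of the 4 genes between the first and the last, Cre06g249550 held 4.02 CPM in the control, 5.53 in Tm, 3.88 in Y and 5.29 in the mixture, and Cre06g249555 held 3.81, 4.76, 3.34 and 4.90 CPM. Neither had a mean in Tm or the mixture below that of the control. Both were higher in Tm than in Y (edgeR adjusted p = 0.00892 and 0.0204) and higher in the mixture than in Y (edgeR adjusted p = 0.012 and 0.0077). The others, Cre06g249400 and Cre06g249450, were at 0.557 CPM or less in all groups. Cre06g249400 had means of 0.0103 CPM in Y, 0.0339 in Tm and 0.195 in the mixture, levels that rest on very few counts. Its mixture minus Y difference was called (edgeR adjusted p = 0.00364) and its Tm minus Y difference was not (edgeR adjusted p = 0.492). No order of the groups is read from such levels.

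**Figure D4:**
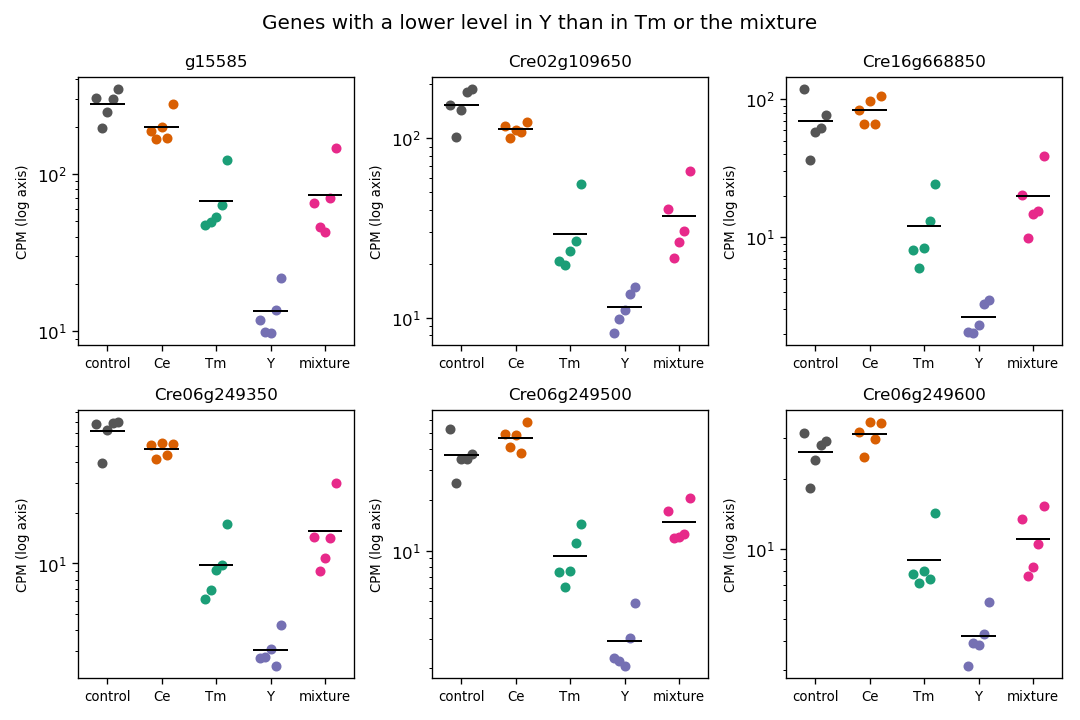
Level in CPM on a log axis of 6 members with a lower level in Y than in Tm or the mixture, in each library (points, in the order 1 to 5) with the group mean (line). The Y points lie below all Tm and mixture points in every panel, as for g15585 with 9.74 to 22.0 CPM in Y and 42.8 to 146 CPM in Tm and the mixture, and library 5 is often the highest of its group.

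Members were spread over the genome. In the RefSeq gene order 0 of the 112 located members had another member as the next gene. Each located member was also paired with the next located member on its chromosome, and 6 such pairs lay within 10 genes. The same count was 13 among the 113 located genes of a mirror set (the 150 genes within the limit on Ce with the highest minimum of D over Tm, Y and the mixture), and 14 among the 100 located genes of the 150 with the lowest maximum of D over all 4 exposures. By the chromosome number in the ID, 20 members (13.3%) were on chromosome 3 and 14 (9.33%) on chromosome 16, against 7.14% and 5.57% of the 7985 genes. Chromosome 6 also held 14 (9.33%, against 7.24%). Other chromosomes lay under their share, such as 12 with 9 members (6.0%, against 9.42%) and 17 with 3 (2.0%, against 5.13%). These shares were not tested. A further 31 members (20.7%) had an ID of the g form with no chromosome, against 23.7%.

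The 87 genes that flank a member, reach 5 CPM and are no members themselves had a median D of -0.27 in Tm, -0.23 in Y, -0.32 in the mixture and 0.03 in Ce. At least 2-fold below the control were 21 of them in Tm (24.1%), 26 in Y (29.9%), 21 in the mixture (24.1%) and 29 in Ce (33.3%), against 22.6%, 24.5%, 22.0% and 26.6% of the 7985 genes.

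In those reference sets, Tm was called above Y in 16 genes and below it in 7 of the mirror set, and above Y in 79 and below it in 0 by edgeR of the genes lowest in all 4 exposures, against 19 and 9 of the members. The differences between these counts were not tested.

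Spread between libraries was not the same in the members as in all genes. Their median coefficient of variation in the control was 17.0%, against 24.4% for the 7985 genes, and in Ce 10.5% against 9.01%. With Tm it was 19.3% against 12.6%, with Y 16.4% against 9.96% and with the mixture 23.3% against 15.0%. The exposed groups in which the members are low give fewer counts per gene. The part of this in the wider spread was not tested.

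Certain libraries led in many members at once. Control library 1 was the highest control in 63 of 150 members (42.0%, against 30.2% of the 7985 genes). Library 5 was the highest of its group in 57 members in Tm (38%, against 27%), in 49 in Y (32.7%, against 25.8%) and in 56 in the mixture (37.3%, against 20.7%). In Ce, library 2 led in 51 (34%, against 13%), and library 5 in 38 (25.3%, against 27.9%). Y library 2 led in 42 (28%, against 17.7%). These shares were not tested. Without library 5 of every group the median D was -1.55 in Tm, -1.54 in Y and -1.55 in the mixture. Since D chose the members, nothing is read from these medians. Without that library the rule took 133 of the 150 again, and 144 stayed at least 2-fold below the control in all 3 groups.

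That Ce stays near the control depends on the scale. With library totals alone, which ignore the higher scaling factors of the Ce libraries, the median D of Ce over the members was 0.54 in place of -0.13, all 150 members had a higher mean in Ce than in the control, and 14 were at least 2-fold higher. The median of all genes over the minimum moved by 0.83 with it. Relative to that median the members stood at -0.24 in Ce in place of -0.07. In Tm, Y and the mixture they stood at -1.54, -1.59 and -1.50 in place of -1.56, -1.62 and -1.53. The median D of Ce was -0.22 under RLE (relative log expression) factors, -0.17 under upper-quartile factors and -0.10 when TMM took control library 1 as its reference. All 150 members lay below the control in Tm, Y and the mixture under each of the 5 scalings. The rule chose them far below the control, so nothing is read from this. At least 2-fold below in all 3 groups were 107 members with control library 1 as the TMM reference and 125 with library totals. Under RLE and upper-quartile factors these were 148 and 149.

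**Figure D5:**
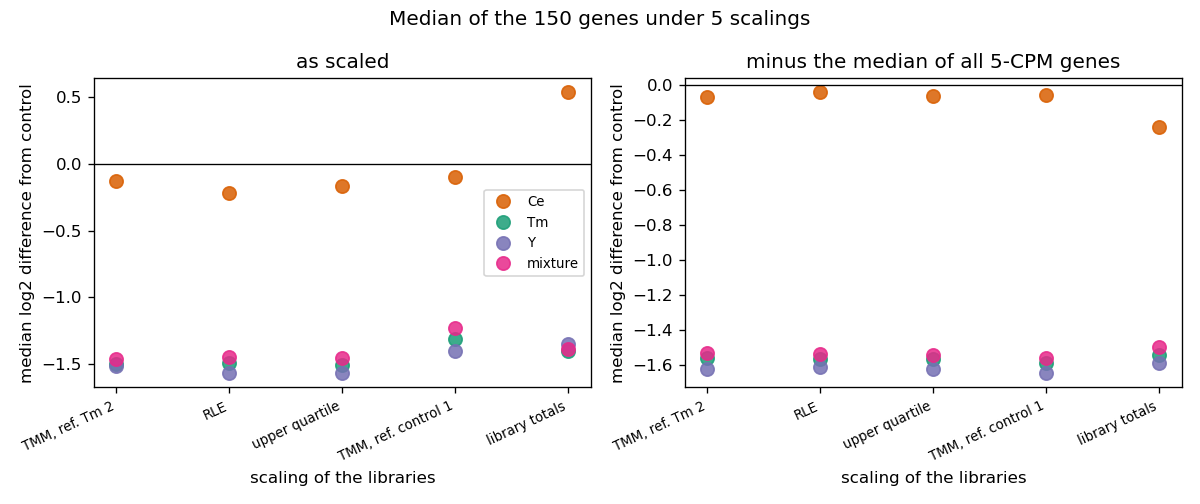
Median log2 difference from the control over the 150 members in each exposed group (colours) under 5 scalings of the libraries, as scaled (left) and minus the median of all genes with at least 5 CPM in a group (right). Ce lies at -0.13 with TMM and at 0.54 with library totals on the left and between -0.24 and -0.04 on the right, while Tm, Y and the mixture stay at -1.23 or lower.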

How the data were processed

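Polyadenylated RNA of 25 libraries (5 groups of 5) was sequenced with a stranded kit, per the labels' protocols. The deposited values are raw read counts per transcript, in 1 table of 19526 transcripts. Trim Galore 0.3.7, TopHat2 2.0.14 and SAMtools 1.2 are named per the submitters' processing notes; for the counting program, its strand setting, the genome build and the annotation, nothing is given in the sources used here. In 34 cells a text prefix was removed from the number, none of them in a member.

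Counts were scaled by TMM with Tm library 2 as the reference (edgeR 4.0.16, R 4.3.3). The members and lists were chosen with earlier results of these data known. Low counts were removed by filterByExpr, which left 12796 genes. The comparisons among Tm, Y and the mixture were made with edgeR's quasi-likelihood test on all 25 libraries, with 1 coefficient per group and Benjamini-Hochberg adjustment over all genes tested. The procedure was tested on simulated data. DESeq2 1.42.0, other scalings, offsets, limits, libraries left out and the replicate number as a block were tried as alternatives. Contrasts with the control were not tested, since they chose the members.

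Genes were named by rule: the 6 with the lowest maximum of D, the 6 most abundant in the control, up to 2 per direction with the largest called difference, and the 3 on each side of the limit. Same-numbered libraries were checked for pairing by the correlation of their deviations from the group means: Tm and the mixture passed in all 5 pairs, the comparisons with Y in 3 of 5 each. Lists by product and sequence features could not be formed from the annotation used here. No 2 libraries of a group agreed within sampling noise (lowest chi-square per degree of freedom 4.63).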

Additional observations from a re-analysis of the deposited data

Results flagged for a closer look

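Among the named members 105 groups of 5 libraries were checked for a library that stands apart from the other 4, and 11 had one. The limit used flags about 1 in 20 groups of independent, normally distributed values. These groups share the same 25 libraries, so the number flagged is not compared with chance. Library 5 was the one apart in 8 of the 11. In g15585 it held 278 CPM in Ce (others 167 to 199), 123 CPM in Tm (47.4 to 63.9) and 146 CPM in the mixture (42.8 to 70.1). In Tm, library 5 held 55.4 CPM of Cre02g109650 (others 19.6 to 26.9), 50.1 CPM of Cre03g177400 (35.8 to 38.7) and 14.3 CPM of Cre06g249600 (7.16 to 8.04). Mixture library 5 held 30.1 CPM of Cre06g249350 (others 9.03 to 14.3), and Ce library 5 held 5.09 CPM of Cre03g197100 (3.67 to 4.05).

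The other 3 were control library 1 for Cre16g678900, with 7.83 CPM (others 2.47 to 4.01), control library 2 for Cre06g249350, with 39.9 CPM (62.8 to 69.3), and Tm library 4 for Cre16g672750, with 33.8 CPM (39.2 to 41.2).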

How the results depend on the processing

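Which genes the rule takes depended on its settings: of the 150, it took 32 again with library totals alone, 98 with a minimum of 1 CPM, 85 with 10 CPM, 71 with a limit of 0.25 on Ce and 59 with a limit of 1, and 128 to 149 with single libraries left out. Library totals moved the median D to 0.54 in Ce and -1.35 in Y. The reference of control library 1 moved it to -1.31 in Tm and -1.23 in the mixture, and an offset of 2 CPM to -1.22 in Tm, -1.21 in Y and -1.18 in the mixture. The causes were not tested.

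For Tm minus Y, 5 members were lower with the control library 1 reference, 15 with the 2 groups alone (a fit that called 41.4% of all genes in either direction) and 3 without library 5 of every group, and DESeq2 called 29 higher. For mixture minus Y, 4 were lower with that reference and 7 by DESeq2. Of all 12795 genes with an adjusted p, DESeq2 called 2995 for Tm minus Y and 4920 for mixture minus Y, in either direction. The shares of all genes were not taken for that reference or with libraries left out, so nothing is read from those counts. Leaving out single libraries gave 3 to 12 lower for Tm minus Y, 7 to 16 lower for mixture minus Y, and 0 to 2 higher and 0 to 1 lower for mixture minus Tm. Tm library 5 gave the 2 higher and mixture library 1 the 1 lower. Cre08g377550 lost its mixture minus Y call with library totals (edgeR adjusted p = 0.0561). Of 44 comparisons of named genes that were not called, 12 were called in some alternative.

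With the replicate number as a block, mixture minus Tm had 4 members higher in the fit of 25 libraries, and 15 higher and 3 lower in that of 2 groups. For Tm minus Y, whose numbers were not taken as pairs (correlations 0.0602 to 0.216), the block with 2 groups gave 31 higher and 20 lower, 34% of the members against 49.5% of all genes. The 2-group block and the omission of library 5 were chosen after seeing the data. Levels near 1 CPM rest on few counts, which limits what differences could be detected.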
